A study of Mus musculus with 12 samples.

Results

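All pairs of different autosomes of the mouse (chromosomes 1 to 19) were compared by how often each was joined by read pairs in Hi-C and HiChIP, away from the chromosome ends. A read pair was used if both of its anchors (the restriction fragments, or runs of neighbouring fragments, to which its ends were assigned) began after position 13000000 and ended over 10 mb before the highest anchor end of their chromosome. Of the 190 pairs that chromosomes 1 to 19 and X can form, the 19 with X were left out, and all the others, each autosome with its 18 partners, had read pairs in every library. The cells were E14Tg2A mouse embryonic stem cells (ESC), grown with LIF at 100 U/mL, and neuronal committed cells (NCC), derived from them by 48 h in 1 μM retinoic acid without LIF. Both cell types come from this one line, and every library therefore shares its genotype. Hi-C maps contacts genome-wide, while HiChIP enriches the same kind of ligated DNA with an antibody, here against FGFR1 (a growth factor receptor with a nuclear form) or CTCF (an architectural zinc finger protein). The 2 biological replicates of each cell type and assay were merged in the deposited files, which leaves 6 pooled libraries and no error between replicates. The files hold contacts and no transcript levels, so that the cell types were not checked against marker genes here.

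Each chromosome occupies its own territory in the interphase nucleus, and contacts between chromosomes form where territories border or intermingle. Short, gene-rich chromosomes tend to lie toward the nuclear interior and long, gene-poor ones toward the periphery. Ribosomal RNA gene clusters of several chromosomes gather in shared nucleoli, and mouse centromeres, all near one end of the chromosome, cluster in chromocenters. Contacts near the chromosome ends were set aside here.

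In 2 of the chromosome pairs with the highest ratios, single places held a large share of the read pairs, and their sequences are shown first for that reason. All coordinates are of GRCm38 (mm10), and all 203879 window anchors of the ESC Hi-C library begin and end at GATC, as do those of the other 5 libraries. The anchor chr2:98661542-98668221 overlaps Gm10801 and Gm10800 (annotated as protein-coding), and the anchor chr6:103648629-103649969 lies inside Chl1, a cell adhesion gene, and holds 1 of its exons. The best BLASTN alignment of these anchors covered 245 bases on each, on the same strand, at 95.5% identity, in an intron of Chl1. The stretch is a tandem repeat on both chromosomes, since its first part recurs with few changes in its second part. Whether reads from other copies of such a repeat were assigned to these anchors was not tested. In the next sequences, capitals mark bases that differ between the chromosomes or have no partner.
Chromosome 6, chr6:103649048-103649292, plus strand: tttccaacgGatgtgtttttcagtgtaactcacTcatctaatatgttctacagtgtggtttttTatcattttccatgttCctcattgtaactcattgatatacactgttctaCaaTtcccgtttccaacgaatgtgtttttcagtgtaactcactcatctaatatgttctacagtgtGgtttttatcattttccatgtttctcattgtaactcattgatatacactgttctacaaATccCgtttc
Chromosome 2, chr2:98666265-98666509, plus strand: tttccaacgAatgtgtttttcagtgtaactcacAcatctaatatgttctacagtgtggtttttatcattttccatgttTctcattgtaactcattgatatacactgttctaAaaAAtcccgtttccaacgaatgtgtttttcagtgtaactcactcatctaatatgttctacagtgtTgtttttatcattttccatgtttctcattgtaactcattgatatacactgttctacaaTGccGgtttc
The other place joins the anchor chr16:57390496-57392310, in introns of Cmss1 and Filip1l, with the anchor chr17:39842463-39849607, which holds a gene annotated as rRNA (CT010467.1, chr17:39846353-39848827) and the long noncoding RNA genes Gm26917, Gm42418 and AY036118. The best BLASTN alignment of these anchors covered 13 bases. Only the anchors themselves were aligned. Whether the chromosome 16 anchor shares sequence with ribosomal RNA gene copies elsewhere was not tested. Parts of both anchors are given with the GATC sites, where the DNA is cut, in capitals. The chromosome 17 anchor holds 15 such sites in 7145 bases.
Chromosome 16, chr16:57390496-57390595, plus strand, first 100 bases of the anchor: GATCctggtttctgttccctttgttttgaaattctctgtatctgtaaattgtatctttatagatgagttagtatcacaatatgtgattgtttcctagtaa
Chromosome 17, chr17:39846353-39846452, plus strand, first 100 bases of the rRNA gene: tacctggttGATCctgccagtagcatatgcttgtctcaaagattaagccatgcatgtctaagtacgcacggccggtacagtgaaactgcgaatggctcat

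Within the window, the libraries held 1361436 read pairs between autosomes in ESC Hi-C, 1603913 in NCC Hi-C, 192727 and 269185 in FGFR1 HiChIP, and 79696 and 87032 in CTCF HiChIP. This was between 65.7% and 68.1% of all read pairs between autosomes. In each library, at least 99.6% of the interactions (pairs of anchors) had a score of 1 read pair. The score of a chromosome pair lay between 2413 and 21290 read pairs in Hi-C, and the lowest in CTCF HiChIP was 138. A chromosome pair was described by its ratio, the summed score over the score expected from the inter-chromosomal totals of both chromosomes. These expected values were fitted so that each chromosome keeps its total and has no contact with itself.

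Ratios stayed near 1. In ESC Hi-C, 159 pairs were within 5% of the expectation, and in NCC Hi-C 158. Their spread was still larger than counting error, with a standard deviation of the log2 ratio of 0.048 in ESC and 0.047 in NCC, against 0.018 and 0.016 from counting alone. In Hi-C the cell types shared the pattern, with a Pearson r of 0.83 between the log2 ratios of ESC and NCC over all pairs. Each r is given as a description, because each chromosome is in 18 pairs. Between ESC and NCC, r was lower in HiChIP, at 0.50 with FGFR1 and 0.37 with CTCF. Counting error made up more of the spread there. For FGFR1 HiChIP it alone gives 0.046 of the observed 0.067 (ESC) and 0.039 of 0.053 (NCC). For CTCF HiChIP these are 0.073 of 0.092 (ESC) and 0.068 of 0.072 (NCC). Since counting error also lowers r, whether the cell types share less of the pattern in HiChIP was not tested. Between Hi-C and FGFR1 HiChIP, r was 0.66 in ESC and 0.69 in NCC, and between Hi-C and CTCF HiChIP, with fewer read pairs, 0.52 and 0.54. After seeing the data, the rRNA anchor of chromosome 17 and the Gm10801/Gm10800 anchor of chromosome 2 were also left out. The r of ESC with NCC was then 0.78 in Hi-C, 0.39 in FGFR1 and 0.22 in CTCF HiChIP. That of Hi-C with FGFR1 HiChIP was 0.61 in ESC and 0.56 in NCC, and with CTCF HiChIP 0.51 and 0.43. With all anchors, 18 pairs were above 1 in all 6 libraries and 27 below 1.

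**Figure D1:**
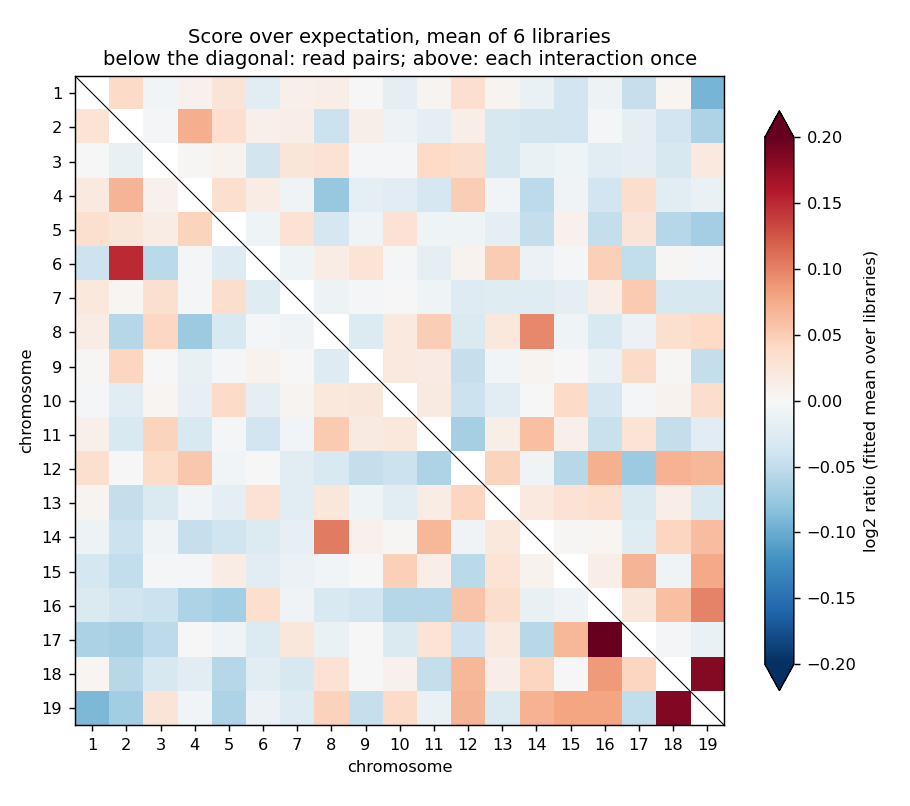
Log2 ratio of score to expectation for each pair of chromosomes 1 to 19, as the fitted mean over 6 libraries, with read pairs below the diagonal and each interaction counted once above it. Chromosomes 16 and 17 (0.33) and 2 and 6 (0.15) stand out only below the diagonal, while 18 and 19 stand out on both sides (0.19 and 0.18).

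Over the 6 libraries, edgeR's quasi-likelihood test (Benjamini-Hochberg adjusted p under 0.05) called 11 pairs, 6.43% of all, different from the expectation. Of all pairs, 2.92% were called higher and 3.51% lower. The 5 higher pairs were chromosomes 16 and 17, 18 and 19, 2 and 6, 8 and 14, and 2 and 4. The 6 lower pairs were 1 and 19, 5 and 16, 2 and 17, 1 and 17, 2 and 18, and 3 and 6, and 5 of these 6 join a long with a short autosome. The spread behind this test is that over 3 assays, which are not replicates of each other. Leaving out both libraries of an assay left 4 pairs called without Hi-C (16 and 17, 18 and 19, 2 and 6, and 8 and 14) and 1, 16 and 17, without FGFR1 HiChIP or without CTCF HiChIP. Without CTCF HiChIP, 18 and 19, 8 and 14, 2 and 4, and 1 and 19 had an adjusted p of 0.0600 each. Without FGFR1 HiChIP, that of 18 and 19 was 0.117.

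Chromosomes 16 and 17 had the highest mean ratio. The ratio was 1.24 in ESC Hi-C (95% exact Poisson interval 1.20 to 1.27) and 1.26 in NCC Hi-C (1.23 to 1.29). It was 1.21 and 1.27 in FGFR1 HiChIP and 1.28 and 1.26 in CTCF HiChIP, for ESC and NCC. All libraries were thus high to a like extent, with a mean log2 ratio of 0.33 ± 0.01 (SE, 6 libraries; adjusted p = 0.00014). The rRNA anchor of chromosome 17 and the Cmss1 anchor alone gave 672 of the 5486 read pairs of this chromosome pair in ESC Hi-C (12.2%, 95% binomial interval 11.4 to 13.1) and 721 of 6483 in NCC Hi-C (11.1%, 10.4 to 11.9). Their share was 11.9% and 14.03% in FGFR1 HiChIP and 11.2% and 16.2% in CTCF HiChIP. A further anchor of chromosome 16, chr16:35980743-35982454, was joined to the same rRNA anchor by 392 read pairs in ESC Hi-C and 486 in NCC Hi-C. It lies in Kpna1 (an importin gene) but overlaps no exon of it, and it overlaps 3 exons of the antisense gene Gm15564. Both 1 mb bins of the strongest place also hold Tmem45a2, Tomm70a and Nit2 on chromosome 16 and Esp24, Gm21903 and Esp23 on chromosome 17. Without the rRNA anchor and the Gm10801/Gm10800 anchor of chromosome 2, a choice made after seeing the data, the ratio of chromosomes 16 and 17 was 1.01 in ESC Hi-C and 1.03 in NCC Hi-C, and its mean log2 ratio was 0.00 (adjusted p = 0.981). With each interaction counted once, it was 0.02 (adjusted p = 0.606).

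The rRNA anchor was joined to many autosomes. It held 4139 read pairs to the other autosomes in ESC Hi-C and 4787 in NCC Hi-C. This was 3.22% and 3.28% of all ends assigned to chromosome 17, and the anchor reached all 18 other autosomes in both. Ribosomal RNA genes also lie in clusters on other chromosomes. Whether the reads assigned to this anchor, also those counted for chromosomes 16 and 17, come from chromosome 17 was not tested. Counting overlapping anchors as 1 locus, 22 pairs of loci had at least 50 read pairs in Hi-C of ESC or NCC, and 15 of the 22 had the rRNA anchor on one side. Their other side lay at Jarid2 (a chromatin regulator) on chromosome 13, Gphn (a synaptic scaffold) on chromosome 12, Xrcc6 (DNA repair) on chromosome 15 and other loci. Several of those other loci overlap no annotated gene. These genes were named after their values were seen, and a role of the genes in the contacts was not tested. The Jarid2 locus and the rRNA anchor shared 169 read pairs in ESC Hi-C and 190 in NCC Hi-C, and 24 and 34 in FGFR1 HiChIP. The loci also met each other, as Cmss1 on chromosome 16 and Jarid2 on chromosome 13 did with 52 read pairs in ESC Hi-C and 51 in NCC Hi-C.

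Chromosomes 2 and 6 also had a single strong place. In Hi-C the ratio was 1.02 in ESC and 1.01 in NCC, with intervals that include 1. It was 1.09 and 1.05 in FGFR1 HiChIP, and 1.41 and 1.12 in CTCF HiChIP, so that CTCF HiChIP in ESC stood apart from the other libraries. The mean log2 ratio was 0.15 ± 0.03 (SE, adjusted p = 0.0466). The place with the shared stretch shown above held 277 read pairs in ESC Hi-C and 361 in NCC Hi-C, or 2.04% and 2.22% of this chromosome pair. It held 5.68% and 5.19% in FGFR1 HiChIP, but 34.3% (31.7 to 37.1) in ESC CTCF HiChIP and 13.2% (11.2 to 15.4) in NCC CTCF HiChIP. Without the 2 recurrent anchors, the mean log2 ratio was 0.01 (adjusted p = 0.707). The chromosome 2 anchor was not joined to chromosome 6 alone. It reached all 18 other autosomes in every library, with 2813 read pairs in ESC Hi-C and 3609 in NCC Hi-C. The same chromosome 2 anchor met chr9:35303328-35307478 (Gm33838, a long noncoding RNA) with 416 read pairs in ESC Hi-C and 641 in NCC Hi-C, or 2.84% and 3.49% of chromosomes 2 and 9. In CTCF HiChIP the order was the other way, with 92 (10.5%) in ESC and 10 (1.04%) in NCC, and FGFR1 HiChIP had 13 and 16. These anchors align over 376 bases at 95.2% identity. The part of the shared sequence in these read pairs was not tested.

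**Figure D2:**
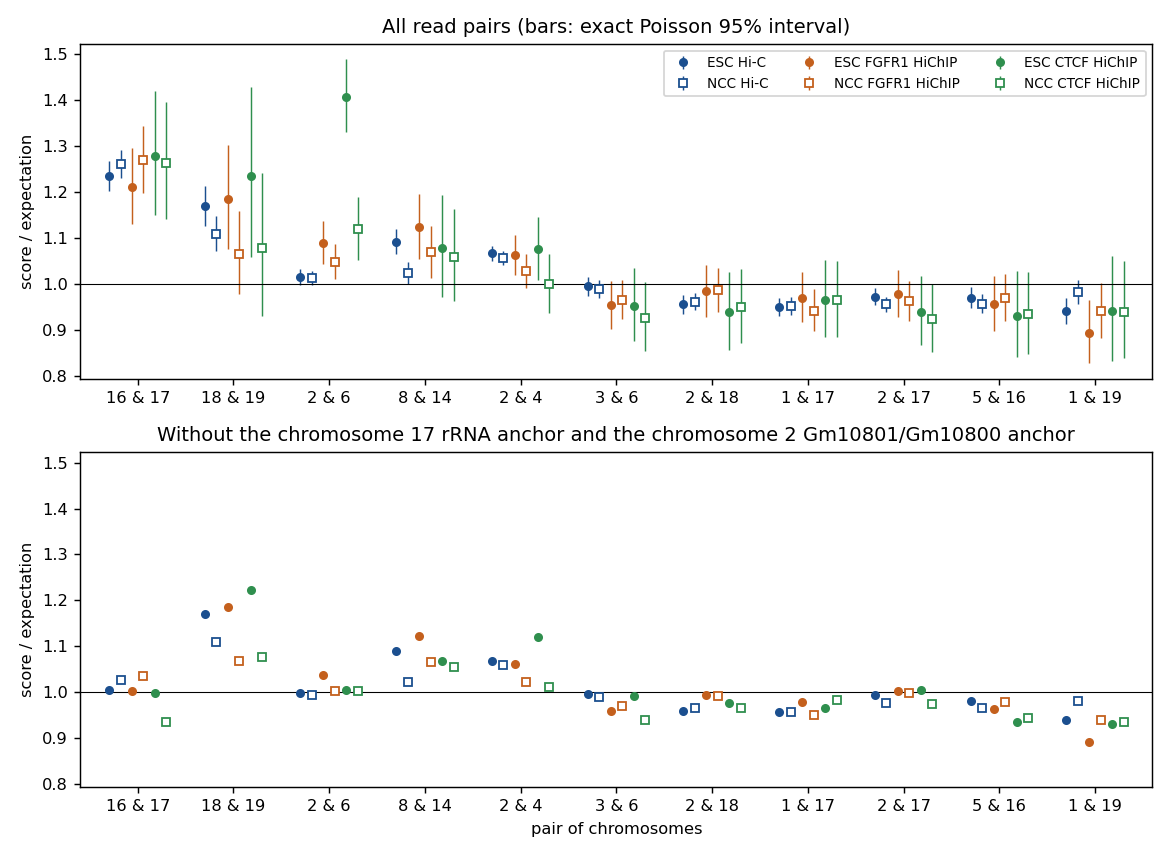
Ratio of score to expectation by library for the 11 called pairs of chromosomes (points are ESC, open squares NCC, colours the assays, bars 95% exact Poisson intervals in the upper plot). Leaving out the rRNA anchor of chromosome 17 and the Gm10801/Gm10800 anchor of chromosome 2 (lower plot) brings chromosomes 16 and 17 and chromosomes 2 and 6 to about 1 and leaves 18 and 19 at 1.17 in ESC Hi-C.

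Chromosomes 18 and 19, the pair of shortest autosomes, were high without such a place. The ratio was 1.17 in ESC Hi-C (1.13 to 1.21) and 1.11 in NCC Hi-C (1.07 to 1.15). It was 1.19 and 1.07 in FGFR1 HiChIP and 1.23 and 1.08 in CTCF HiChIP. All 6 libraries were above 1, and in every assay ESC was the higher cell type. The mean log2 ratio was 0.19 ± 0.02 (SE, adjusted p = 0.0165), and 0.18 without the recurrent anchors (adjusted p = 0.00165) or with each interaction counted once (adjusted p = 0.000237). The strongest pair of anchors held 3 of its 2900 read pairs in ESC Hi-C. The strongest pair of 1 mb bins, with Nrg2, Pura and Igip on chromosome 18 and Mrpl43, Twnk and Lzts2 on chromosome 19, held 15 (0.517%, 0.290 to 0.852). When each window was divided into 4 equal parts, 15 of the 16 combinations were above the expectation in ESC and 15 in NCC, against a median of 8 over all pairs in each. The mean ratio was 1.18 with both anchors before 40 mb and 1.19 with both after 40 mb.

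Chromosomes 8 and 14 had ratios of 1.09 in ESC Hi-C (1.07 to 1.12) and 1.02 in NCC Hi-C (1.00 to 1.05). They were 1.12 and 1.07 in FGFR1 HiChIP and 1.08 and 1.06 in CTCF HiChIP, above 1 in all libraries. The mean log2 ratio was 0.10 ± 0.01 (SE, adjusted p = 0.0165). The excess in ESC was uneven along the chromosomes, and between the first parts of both windows the ratio was 1.79 in ESC Hi-C and 1.22 in NCC Hi-C. The strongest bins, with Hmgxb4, Tom1 and Hmox1 (heme oxygenase) on chromosome 8 and Rnase10, Rnase9 and Rnase11 on chromosome 14, held 24 read pairs in ESC Hi-C, 0.367% of the pair, and 29 in NCC.

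Chromosomes 2 and 4 had ratios of 1.07 in ESC Hi-C (1.05 to 1.08) and 1.06 in NCC Hi-C (1.04 to 1.07). They were 1.06 and 1.03 in FGFR1 HiChIP and 1.08 and 1.00 in CTCF HiChIP, so that NCC CTCF HiChIP reached only the expectation. The mean log2 ratio was 0.07 ± 0.01 (SE, adjusted p = 0.0466). This excess depended on position, as the mean ratio was 0.850 with both anchors before 40 mb (adjusted p = 0.0178) and 1.03 with both after 40 mb (adjusted p = 0.0681). It was 1.42 in ESC Hi-C and 1.31 in NCC Hi-C between the last parts of both windows, the highest of the 16 combinations. The strongest bins in ESC Hi-C held Ptprt, Srsf6 and L3mbtl1 on chromosome 2 and the pheromone protein genes Mup20, Mup3 and Mup21 on chromosome 4, with 50 read pairs. Of these, 19 joined the strongest pair of anchors, at L3mbtl1 on chromosome 2 and at Slc31a1 and Cdc26 on chromosome 4. That pair of anchors was also the strongest in NCC Hi-C, with 17.

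Chromosomes 1 and 19, the longest and the shortest autosome, had the lowest mean ratio. It was 0.941 in ESC Hi-C (0.914 to 0.969) and 0.983 in NCC Hi-C (0.957 to 1.01). It was 0.895 and 0.941 in FGFR1 HiChIP and 0.942 and 0.940 in CTCF HiChIP, and hence below 1 in all 6 libraries. The mean log2 ratio was -0.09 ± 0.01 (SE, adjusted p = 0.0326). In ESC Hi-C, 3 of the 16 combinations of parts were above the expectation. The other 5 lower pairs had mean ratios between 0.954 and 0.964, each below 1 in all libraries. Without the recurrent anchors, 5 and 16 (0.962, adjusted p = 0.0423) and 1 and 17 (0.965, adjusted p = 0.0423) still passed the test. Chromosomes 2 and 17 (0.992, adjusted p = 0.702), 2 and 18 (0.975, adjusted p = 0.138) and 3 and 6 (0.974, adjusted p = 0.0983) did not.

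Without these anchors, 22 pairs were called, 12 higher and 10 lower, of which 6 were among the 11. Chromosomes 16 and 18 then passed at a log2 ratio of 0.10 (adjusted p = 0.0069), but 1 place remained in it, the Cmss1 anchor with an anchor of chromosome 18. That place held 2.25% of the read pairs of 16 and 18 in ESC Hi-C, 1.11% in NCC Hi-C and between 2.38% and 5.78% in HiChIP. With the Cmss1 anchor left out as well, the log2 ratio was 0.06 (adjusted p = 0.102). Chromosomes 12 and 16 passed at 0.07 (adjusted p = 0.0297) without the 2 recurrent anchors.

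Nucleolus organizer chromosomes were taken as chromosomes 12, 15, 16, 18 and 19, which carry ribosomal RNA gene clusters near their centromeres, although the set in use differs between strains and was not determined in this line. Their 10 pairs had a summed score over summed expectation of 1.04 in ESC Hi-C (1.03 to 1.05) and 1.04 in NCC Hi-C (1.03 to 1.05). It was 1.05 and 1.01 in FGFR1 HiChIP and 1.04 and 1.03 in CTCF HiChIP. The mean over the libraries was 1.035 ± 0.012 (SD, 6 pooled libraries), all above 1, and the intervals of NCC FGFR1 and of both CTCF libraries included 1. The 70 pairs with 1 organizer chromosome were between 0.991 and 0.998, and the 91 with none between 1.001 and 1.002. The median of the mean ratio was 1.05 over the 10 pairs and 0.997 over all pairs.

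**Figure D3:**
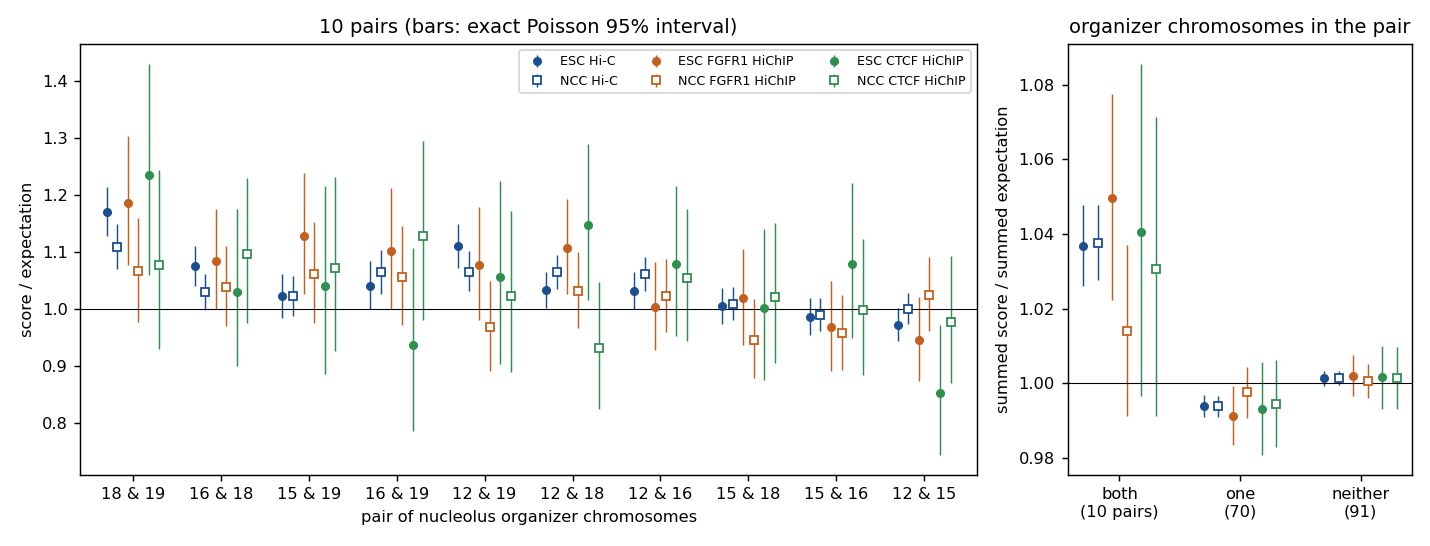
Ratio of score to expectation for the 10 pairs of nucleolus organizer chromosomes by library (left), and summed score over summed expectation for pairs with both, one or neither chromosome of this set (right), with 95% exact Poisson intervals. In the mean over the libraries 18 and 19 are highest and 12 and 15 lowest, and the 10 pairs together lie above 1 in all 6 libraries.

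Of the 10 organizer pairs, 1 was called higher and 0 lower by edgeR, against 6.43% of all pairs called, and 7 had a mean ratio above 1. After 18 and 19, the next were 16 and 18 with a mean ratio of 1.06 (adjusted p = 0.0542), 15 and 19 with 1.06 (adjusted p = 0.0843) and 16 and 19 with 1.06 (adjusted p = 0.141). In single libraries, 16 and 19 ranged from 0.937 in ESC CTCF HiChIP to 1.13 in NCC CTCF HiChIP. Chromosomes 12 and 19 had 1.11 in ESC Hi-C and 1.07 in NCC Hi-C, and 12 and 16 had 1.03 and 1.06. Chromosomes 12 and 15 had the lowest mean ratio, 0.964, with 0.973 and 1.00 in Hi-C, 0.945 and 1.02 in FGFR1 HiChIP, and 0.853 and 0.977 in CTCF HiChIP. In NCC FGFR1 HiChIP this pair was above 1, and 3 others of the 10 were below 1. The mean ratios of chromosome 15 with 16 and 18 were 0.995 and 0.999. With both anchors after 40 mb, far from the clusters, the 10 pairs had a mean of 1.045 ± 0.020 (SD, 6 libraries), and 16 and 18 had 1.24 (adjusted p = 5.48e-09). A single place took part in the latter value. The Cmss1 anchor and 1 anchor of chromosome 18 held 81 of the 882 read pairs of 16 and 18 after 40 mb in ESC Hi-C (9.18%) and 45 of 996 in NCC Hi-C (4.52%), and between 7.53% and 18.8% in the HiChIP libraries. No pair of anchors without the Cmss1 anchor held more than 2 there. Without the Cmss1 anchor, a choice made after seeing the data, the mean ratio of 16 and 18 after 40 mb was 1.11 (adjusted p = 0.0199), and that of the 10 pairs was 1.037 ± 0.020 (SD, 6 libraries).

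The sign for these pairs depended on how the expectation was made. With the plain product of the chromosome totals, which does not keep each total, the mean over libraries was 0.992. Organizer chromosomes are also all among the 6 shortest autosomes, and chromosome 17 is the only other one of these 6, so that length and organizers cannot be told apart here. The mean ratio of 17 and 18 was 1.03 and that of 17 and 19 was 0.966, and without the recurrent anchors they were 0.984 and 0.980.

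Hox genes order the body axis and lie in 4 clusters, on chromosomes 2, 6, 11 and 15. Of the 6 pairs of these chromosomes, only 2 and 6 was called, the pair with the strong place described above, against 6.43% of all pairs called. The others had mean ratios of 0.979 for 2 and 11, 0.966 for 2 and 15, 0.974 for 6 and 11, 0.985 for 6 and 15, and 1.01 for 11 and 15, with adjusted p between 0.0524 and 0.709. The median of the 6 was 0.982, against 0.997 over all pairs, and none of the 6 passed the test between NCC and ESC (adjusted p of at least 0.841).

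Chromosome length went with the ratio only weakly. The Spearman rho of the mean log2 ratio with the difference of the lengths was -0.27 over all pairs, and it was negative in all 6 libraries, from -0.15 to -0.28. Autosomes of like length thus had slightly higher ratios than those of unlike length. Pairs of the 6 shortest autosomes (15 pairs) had a mean of 1.043 ± 0.009 (SD, 6 libraries), those of the 6 longest (15 pairs) 1.015 ± 0.004, and those of a short with a long autosome (36 pairs) 0.985 ± 0.004. Of the 36, 5 were called lower and 0 higher by edgeR, and of the 15 short pairs 2 were called higher and 0 lower, against 6.43% of all pairs called. Without the recurrent anchors, the short pairs were at 1.02 and the rho at -0.20. Of the called pairs with a short autosome, 16 and 17, 2 and 17, and 2 and 18 then no longer passed the test. The short pairs 16 and 18 and 12 and 16 passed it. With the Cmss1 anchor left out as well, 16 and 18 did not (log2 ratio 0.06, edgeR adjusted p = 0.102). Among the 3 longest autosomes, 1 and 2 had a mean ratio of 1.02, 1 and 3 of 0.999 and 2 and 3 of 0.990.

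Gene density of whole chromosomes went with the ratio less. Protein-coding genes per mb ranged from 5.35 on chromosome 12 to 13.9 on chromosome 7. The rho with the sum of the densities was -0.05 and with their difference -0.02. Pairs of the 6 gene-dense autosomes had a mean of 0.996 and those of the 6 gene-poor ones 1.01, and the sum of lengths had a rho of -0.07. The totals, which the expectation takes out, did differ with density. Read-pair ends per mb of window were highest on chromosome 11 in Hi-C (1.48 times the mean in ESC and 1.51 in NCC) and lowest on chromosome 1 in ESC (0.775) and chromosome 3 in NCC (0.762). Over the 19 autosomes, their Spearman rho with the gene density of the window was 0.62 in ESC Hi-C and 0.64 in NCC Hi-C, and between 0.32 and 0.51 in the HiChIP libraries.

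Within chromosome pairs, bins of like gene density met more often than expected, though not they alone. The 1 mb bins of the windows were divided by their protein-coding genes into 3 classes, the gene-poor (678 bins with 0 to 3 genes), the middle (678 bins) and the gene-dense (677 bins with 9 to 69 genes), and expectations were made from the bin totals inside each chromosome pair. In ESC Hi-C, contacts of gene-poor with gene-poor bins were 1.37 times the expectation (1.35 to 1.38), above 1 in every chromosome pair. Gene-dense with gene-dense bins had 1.08 (1.07 to 1.08), also above 1 in every pair. Gene-poor with gene-dense bins had 0.843 (0.839 to 0.847), above 1 in 0 pairs. In NCC Hi-C these were 1.32, 1.06 and 0.865, each closer to 1 than in ESC. The same order of classes held in HiChIP. Gene-poor with gene-poor bins had 1.29 in ESC and 1.21 in NCC with FGFR1, and 1.33 and 1.22 with CTCF, without overlap of the intervals. Gene-poor with gene-dense bins had 0.834 and 0.859 with FGFR1, and 0.829 and 0.863 with CTCF, also without overlap. Gene-dense with gene-dense bins had 1.107 and 1.105 with FGFR1, and 1.104 and 1.090 with CTCF, and there the intervals of ESC and NCC overlap.

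**Figure D4:**
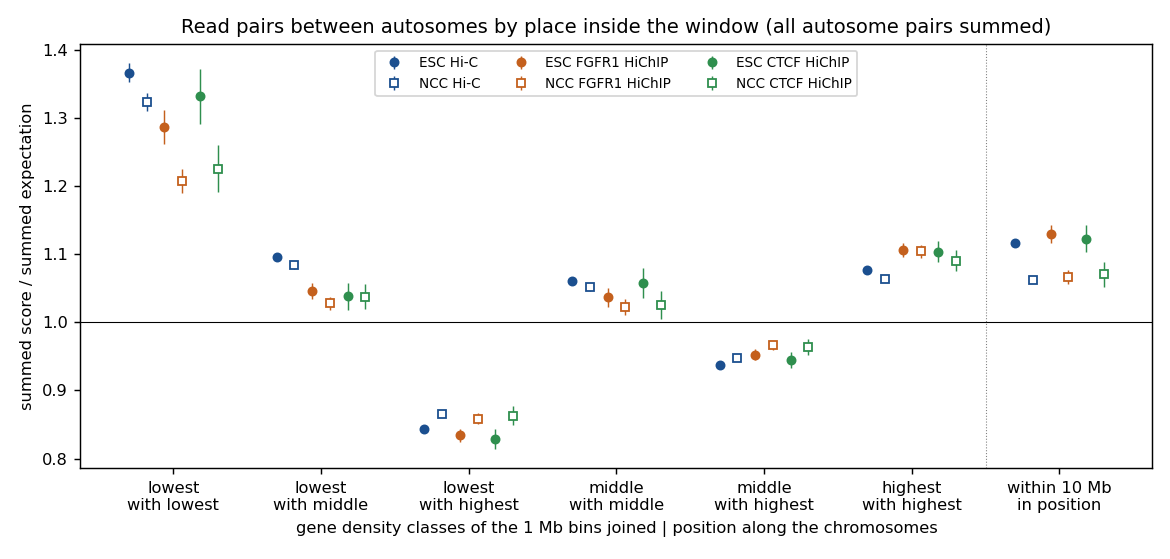
Summed score over summed expectation for read pairs between autosomes, by the gene density classes of the 1 mb bins they join (lowest is gene-poor, highest gene-dense) and, at the right, for anchors under 10 mb apart in distance from the chromosome start (points are ESC, open squares NCC, bars 95% exact Poisson intervals). Like bins and gene-poor with middle bins meet above 1, and gene-poor with gene-dense bins at 0.83 to 0.87. The ESC value is farther from 1 for gene-poor pairs of bins and for like positions in all 3 assays.

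Anchors at like positions also met more often. Read pairs whose anchors lay under 10 mb apart in distance from their chromosome starts had 1.12 times the expectation in ESC Hi-C (1.11 to 1.12) and 1.06 in NCC Hi-C (1.06 to 1.07). They had 1.13 and 1.07 in FGFR1 HiChIP and 1.12 and 1.07 in CTCF HiChIP. ESC was higher in all 3 assays, and no interval of ESC met that of NCC in the same assay. The ratio was above 1 in 156 pairs in ESC Hi-C and in 141 in NCC Hi-C. With both anchors after 40 mb it was 1.06 and 1.03 in Hi-C and 1.08 and 1.03 in FGFR1 HiChIP. In CTCF HiChIP it was then 1.08 (1.053 to 1.099) and 1.05 (1.025 to 1.069), and these intervals overlap. With 3 assays, an exact test over the sign of the difference cannot give a two-sided p below 0.25, and the intervals cover counting error only.

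Between NCC and ESC, edgeR called 0 chromosome pairs (0%) over the 3 assays, with 17 at an unadjusted p under 0.05, or 9.94%. The limma test also called 0 (16 unadjusted) and DESeq2 0 (0 unadjusted). The log2 differences in Hi-C and FGFR1 HiChIP had a Pearson r of 0.39 over all pairs, and those in CTCF HiChIP had 0.22 with Hi-C and 0.21 with FGFR1. In all 3 assays, 40 pairs were higher in NCC and 29 lower.

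**Figure D5:**
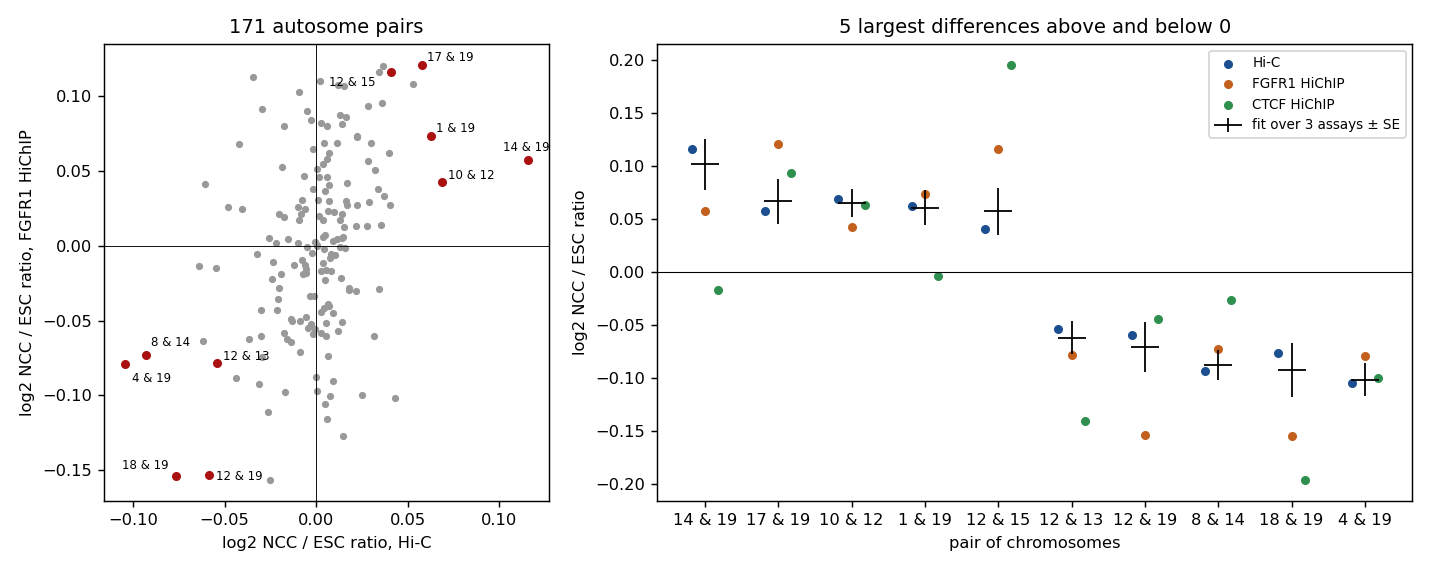
Log2 of the NCC over the ESC ratio for all autosome pairs in Hi-C and FGFR1 HiChIP (left, the 10 named pairs in red) and for the 5 largest differences above and below 0 by assay, with the fit over 3 assays and its SE (right). Chromosomes 4 and 19, 8 and 14, 18 and 19, 12 and 19 and 12 and 13 are below 0 in all 3 assays.

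Of the differences below 0, the largest by size were those of 4 and 19, 18 and 19, 8 and 14, 12 and 19, and 12 and 13, and none passed the test with all read pairs. Chromosomes 4 and 19 had a ratio of 1.01 in ESC and 0.940 in NCC in Hi-C, 1.03 and 0.980 in FGFR1 HiChIP, and 1.04 and 0.971 in CTCF HiChIP. Their log2 difference was -0.10 ± 0.02 (SE, 3 assays, adjusted p = 0.0815), lower in 3 of 3 assays. Chromosomes 8 and 14 had -0.09 ± 0.01 (adjusted p = 0.0815), lower in 3 of 3. Both missed the threshold with all read pairs and passed it without the recurrent anchors (adjusted p = 0.0160 for each) or with each interaction counted once (adjusted p = 0.0129 for each). Without the 1% strongest anchors, 8 and 14 passed (adjusted p = 0.0155) and 4 and 19 did not (adjusted p = 0.112). With both anchors from 13 to 40 mb, the log2 difference of 4 and 19 turned to 0.01 (adjusted p = 0.991), and that of 8 and 14 was -0.18 (adjusted p = 0.333). The limma test gave an adjusted p of 0.488 for each and DESeq2 0.995. In Hi-C alone, the exact binomial test on the read pairs gave an adjusted p of 0.0338 for 4 and 19 and 0.0255 for 8 and 14, which compares the 2 pooled libraries and not the conditions. Chromosomes 18 and 19 had -0.09 ± 0.03 (adjusted p = 0.307), 12 and 19 had -0.07 ± 0.02 (adjusted p = 0.361), and 12 and 13 had -0.06 ± 0.02 (adjusted p = 0.287). Without Hi-C, these differences were -0.17, -0.12 and -0.10.

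Of the differences above 0, the largest by size were those of 14 and 19, 17 and 19, 10 and 12, 1 and 19, and 12 and 15, and none passed the test. Chromosomes 14 and 19 had a log2 difference of 0.10 ± 0.02 (adjusted p = 0.272), with ratios of 1.01 and 1.09 in Hi-C and 1.08 and 1.07 in CTCF HiChIP, so that the assays differed in direction. In NCC Hi-C, 14 of the 16 combinations of parts of this pair were above the expectation, and in ESC Hi-C 6. Chromosomes 17 and 19 (0.07 ± 0.02, adjusted p = 0.405), 10 and 12 (0.07 ± 0.01, adjusted p = 0.233) and 12 and 15 (0.06 ± 0.02, adjusted p = 0.457) were higher in NCC in all 3 assays, and 1 and 19 (0.06 ± 0.02, adjusted p = 0.325) in 2 of 3. Without Hi-C, the difference was 0.14 for 12 and 15, 0.11 for 17 and 19 and 0.04 for 14 and 19. Chromosome 19 was in 6 of these 10 pairs and chromosome 12 in 4. The pairs of chromosome 19 have few read pairs, and a role of that in their size was not tested.

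Totals of chromosomes, which the ratios do not show, differed little. The share of window ends on chromosome 17 was 4.73% in ESC and 4.55% in NCC in Hi-C, 4.43% and 4.23% in FGFR1 HiChIP, and 4.59% and 4.34% in CTCF HiChIP. It fell by 0.06 on the log2 scale (SE 0.01, edgeR adjusted p = 0.00417), lower in all 3 assays. Chromosome 9 rose by 0.04 (SE 0.01, adjusted p = 0.0423), from 6.03% to 6.23% in Hi-C, while CTCF HiChIP went from 5.96% to 5.94%. These were 2 of 19 autosomes, 10.5%. Which autosomes were called depended on the test. The limma test and DESeq2 each called chromosomes 14, 16 and 17 but not 9, and edgeR called 9, 14 and 17 without the recurrent anchors or with each interaction counted once. Without Hi-C, edgeR called 0 (5 at an unadjusted p under 0.05), without FGFR1 HiChIP 0 (3) and without CTCF HiChIP 0 (7).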

How the data were processed

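Hi-C, FGFR1 HiChIP and CTCF HiChIP libraries of ESC and NCC were aligned by the authors to mm10 with HiC-Pro and called with hichipper at default settings, and the deposited files hold the count of read pairs per pair of anchors, not normalized or filtered on q, with both replicates of a group merged. Samples were grouped by their titles. For each library, window counts of the 171 autosome pairs were summed, and expectations were fitted iteratively to the 19 chromosome totals with an empty diagonal. Ratios carry 95% exact Poisson intervals, shares 95% exact binomial intervals, and both cover counting error only. Read pairs were tested with the expectations as offsets by edgeR 4.0.16 in R 4.3.3 (quasi-likelihood, assay and cell type as terms, Benjamini-Hochberg over 171 pairs). The dispersion was set to 0 (quasi-Poisson) after seeing the data, because its estimate lay at the end of edgeR's range. No replicate error was available, so p-values measure the spread over assays. Alternatives used limma 3.58.1, DESeq2 1.42.0, other expectations, windows and anchors. The steps were tested on simulated Poisson counts without spread between assays, so that they do not cover the spread behind these p-values. Of 40 pairs changed 1.05-fold between cell types, 67.5% were found, and of those changed 1.1-fold 100%. Sequences came from RefSeq's GRCm38.p6, and anchors were aligned with BLASTN 2.17.0. Genes per mb were counted from the GENCODE annotation of the same build. Pairs named in the text were those called, the 5 largest differences in each direction between NCC and ESC, the organizer and Hox pairs, and the pairs of the 3 shortest and 3 longest autosomes. Members and lists were chosen with earlier results of these data known. According to the paper, duplicate reads were removed in HiC-Pro, and it describes no molecular identifiers. Duplicates left after that step could not be checked here.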

Additional observations from a re-analysis of the deposited data

Results flagged for a closer look

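The difference between NCC and ESC for chromosomes 2 and 6 was not the same in the 3 assays. Its log2 value was -0.005 in Hi-C, -0.06 in FGFR1 HiChIP and -0.33 in CTCF HiChIP, and a likelihood-ratio test of equal differences on the read pairs gave an adjusted p of 0.000226 over all autosome pairs. It was the only pair past the threshold, and 3 had an unadjusted p under 0.05. The test compares pooled libraries and not the conditions. The anchors in Gm10801/Gm10800 on chromosome 2 and in Chl1 on chromosome 6 held 417 of the read pairs of this chromosome pair in ESC CTCF HiChIP and 138 in NCC CTCF HiChIP. Without the 2 recurrent anchors, the ratios in CTCF HiChIP were 1.01 in ESC and 1.00 in NCC.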

How the results depend on the processing

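No paired analysis was possible because each file merges both replicates of its group. The number of autosome pairs called away from the expectation was 11, and it was 48 with the product of the totals, 55 at all positions, 28 with 20 mb margins, 19 with X in the totals, 25 with both anchors from 13 to 40 mb, 27 with both after 40 mb, 22 without the 2 recurrent anchors, 32 with limma, 3 with DESeq2, 28 in ESC and 62 in NCC libraries alone, and 36 and 48 in ESC and NCC Hi-C alone by exact Poisson tests. Leaving out both libraries of 1 assay gave 1 to 4. Between NCC and ESC, 0 pairs became 2 with each interaction counted once, 2 without the recurrent anchors, 1 without the 1% strongest anchors, 2 by the exact binomial test in Hi-C and 2 by the methods' t-test over pairs of bins in Hi-C. Of the chromosome shares, 2 were called (chromosomes 9 and 17), 3 with limma (14, 16 and 17), 3 with DESeq2 (14, 16 and 17), 3 without the recurrent anchors (9, 14 and 17), 3 with each interaction counted once (9, 14 and 17), 0 with an estimated dispersion (2 unadjusted) and 0 to 0 without 1 assay. With the product of the totals, which by construction does not return each total, the mean ratio turned to 0.992 for organizer pairs and 0.996 for pairs of gene-poor autosomes, and the rho with summed length turned to 0.403. It was then 1.030 for Hox pairs, 1.004 for short pairs, 0.978 for short with long, 1.040 for long pairs and 1.006 for gene-dense pairs. From 13 to 40 mb, the mean was 1.066 for organizer pairs, 1.070 for short pairs, 0.978 for short with long, 1.011 for long pairs and, turned, 0.983 for gene-poor pairs, and the log2 ratio turned to -0.234 for chromosomes 2 and 4, 0.231 for 2 and 17 and 0.027 for 3 and 6. After 40 mb, it was 0.990 for short with long, 0.988 for gene-dense and 1.011 for gene-poor pairs. With each interaction counted once, without the 1% strongest anchors and without the recurrent anchors, in this order, it was 1.022, 1.023 and 1.021 for short pairs, 0.992, 0.992 and 0.992 for short with long, 1.010, 1.012 and 1.010 for long pairs, and 1.000, 1.000 and 1.001 for gene-dense pairs. It was 1.034 for short and 1.013 for gene-poor pairs at all positions, and 1.053 for short and 0.991 for gene-dense pairs with 20 mb margins. The rho with summed length was -0.119 in NCC Hi-C and -0.025 in ESC FGFR1 HiChIP, and that with the length difference -0.179 in ESC FGFR1, -0.146 in NCC FGFR1 and -0.159 in ESC CTCF HiChIP. The rho with summed density was 0.097 with the product, -0.009 with 20 mb margins, 0.018 in ESC FGFR1, -0.011 in NCC FGFR1 and -0.094 with genes in the window. The rho with the density difference was 0.033 with the product, -0.061 with each interaction once, -0.075 without the 1% strongest anchors, -0.072 at all positions, 0.052 with 20 mb margins, 0.030 in NCC Hi-C, 0.026 in NCC CTCF, 0.035 with all genes and -0.107 with genes in the window. Except as given here, the causes of these changes were not tested. For single pairs and chromosomes, 308 values under an alternative kept direction and side of the threshold, 91 lost the threshold and 10 gained it. The recurrent anchors, the Cmss1 anchor, the parts of the window before and after 40 mb and the estimated dispersion were chosen as alternatives after seeing the data. A minimum of 100 read pairs left out no autosome pair. Depth limits CTCF HiChIP most, where the spread of the NCC log2 ratios was 0.072 and counting error alone gives 0.068.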
